A study of Mus musculus with 3 samples.

Results

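The genes described are 8 genes of fatty acid and lipoprotein uptake: Cd36, Msr1, Scarb1, Lrp1, Vldlr, Lpl, Lipc and Fabp5. They were chosen by name for their function, with earlier results of these data known, so counts and medians over them describe the 8 and are no independent evidence. All 8 were among the 32285 genes counted. Their UMI counts (unique molecular identifiers, each standing for 1 captured RNA molecule) were compared across classes of liver nuclei by single-nucleus RNA sequencing (sNuc-Seq). The libraries came from frozen livers of male C57BL/6 J mice, with 1 library per mouse: 1 mouse on normal diet (ND) and 2 mice that received streptozocin (STZ, 0.2 mg) under the skin at 3 days of age and a high-fat, high-cholesterol (HFHC) diet from 4 weeks. STZ destroys the insulin-producing cells of the pancreas, and the submitters describe the STZ-HFHC mice as having liver fibrosis related to metabolic dysfunction-associated steatohepatitis. No age at sampling was given for these 3 livers in the sources used here. The question was where these genes were expressed and how their levels in STZ-HFHC compared with ND.

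Lipids reach liver cells by several routes. Lipoprotein lipase (Lpl) and hepatic lipase (Lipc) release fatty acids from triglycerides carried in lipoproteins, and CD36 takes up long-chain fatty acids and modified lipoproteins. Lrp1 and the VLDL receptor (Vldlr) internalise lipoprotein particles, SR-BI (Scarb1) takes cholesteryl esters from HDL, and the class A scavenger receptor (Msr1) is a receptor of macrophages and sinusoidal endothelium for modified lipoproteins. FABP5 binds fatty acids inside the cell. In healthy liver, hepatic lipase is a hepatocyte product, and macrophages filled with lipid are known for CD36, lipoprotein lipase and FABP5.

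After filtering, 8494 nuclei of ND and 8921 and 10921 of STZ-HFHC 1 and 2 remained, with a median of 3015 to 4068 UMIs per nucleus. Between 20 and 27 barcodes were shared by any pair of libraries. Levels are given as CPM, the UMIs of the gene scaled to a fixed total of 1000000 UMIs in the same nuclei, with the exact 95% Poisson interval, which covers counting error only. With 1 ND mouse no test between conditions was possible. A gene was called higher or lower when its log2 ratio to ND reached 1 in size, with 1 sign, for each STZ-HFHC mouse and it had at least 50 UMIs over the 3 libraries. The sample codes of the ND library begin with 3rd and those of the STZ-HFHC libraries with 2nd, and if these codes mark batches, batch and condition cannot be told apart in any comparison below. Nuclei of the 2 conditions mostly lay in different clusters. Hepatocyte markers were found in every class: in ND their summed level in endothelial-, macrophage-, stellate or fibroblast- and T or NK cell-like nuclei was 81.3% to 93.6% of that in hepatocyte-like nuclei, against 48.5% to 86.3% in the STZ-HFHC libraries. Hepatocyte RNA outside hepatocytes therefore stands beside each level given for another class. In STZ-HFHC 1 and 2, 157 and 224 of the 1353 and 895 macrophage-like nuclei lay in a subcluster without ND nuclei. Of its nuclei 64.0% had doublet scores among the highest 8% of their library. These nuclei enter each macrophage-like level and ratio below, and their part was not separated.

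RefSeq promoter windows of 300 bases on GRCm38.p6, from 250 bases before to 50 after a start site, were found for 4 of the 8 genes (Cd36, Lipc, Vldlr and Lrp1). The 3 shown belong to the genes whose hepatocyte levels differed most between conditions among those 4, and are given 5′ to 3′ on the strand of the gene. Capitals mark a match on either strand to AGGTCA, a core sequence bound by nuclear receptors, or to CCAAT, the CCAAT box. The TATA box (letters TATAAA), DR1 (the direct repeat of AGGTCA with 1 base between, bound by PPAR and RXR) and TCACNCCAC (core of the sterol regulatory element) were also searched and had no match in these 3 windows. Of 32851 windows of this length, 16.3% held AGGTCA, 37.4% CCAAT, 13.6% TATAAA, 0.0396% DR1 and 1.24% the sterol element.
Cd36, chr5:17835847-17836146, minus strand: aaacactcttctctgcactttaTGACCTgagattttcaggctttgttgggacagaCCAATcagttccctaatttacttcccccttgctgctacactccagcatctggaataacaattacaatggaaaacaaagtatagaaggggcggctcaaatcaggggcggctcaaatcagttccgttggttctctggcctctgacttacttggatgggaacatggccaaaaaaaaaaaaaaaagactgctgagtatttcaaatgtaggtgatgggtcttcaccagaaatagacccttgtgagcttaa
Lipc, chr9:70952172-70952471, minus strand: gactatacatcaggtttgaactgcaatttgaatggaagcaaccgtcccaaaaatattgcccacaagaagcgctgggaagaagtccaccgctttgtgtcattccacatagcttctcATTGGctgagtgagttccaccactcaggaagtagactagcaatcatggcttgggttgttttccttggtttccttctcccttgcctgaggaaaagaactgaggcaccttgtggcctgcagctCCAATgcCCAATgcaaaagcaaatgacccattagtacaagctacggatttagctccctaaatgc
Vldlr, chr19:27216234-27216533, plus strand: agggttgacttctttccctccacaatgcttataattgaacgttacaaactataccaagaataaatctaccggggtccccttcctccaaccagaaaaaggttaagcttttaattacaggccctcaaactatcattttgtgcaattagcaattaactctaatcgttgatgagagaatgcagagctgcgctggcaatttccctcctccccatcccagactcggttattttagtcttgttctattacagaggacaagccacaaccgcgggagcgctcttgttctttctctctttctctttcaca
The Cd36 window held 1 AGGTCA and 1 CCAAT match, the Lipc window 3 CCAAT matches, and the Vldlr window no match. Lipc and Vldlr each have a second window that is not shown, at a start site 17418 and 536 bases inside the gene, which held 2 AGGTCA and 1 CCAAT match for Lipc and 1 CCAAT match for Vldlr. The start site of the Cd36 window lies 52905 bases inside the annotated gene, and that of Lipc 5 bases inside. A match is a string of letters and says nothing on binding.

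Over all nuclei kept, 4 of the 8 genes were higher in both STZ-HFHC libraries and 1 was lower, where 13.6% of 16829 genes were higher and 4.74% lower. Lpl, Cd36, Vldlr and Fabp5 were higher, Lipc was lower, and Msr1, Scarb1 and Lrp1 did not pass the fold rule. The median log2 ratio of the 8 genes was 2.35 and 1.12 in STZ-HFHC 1 and 2, against 0.19 and 0.17 for all genes tested. These sums mix a change in the make-up of the nuclei with a change within a class, and the 2 cannot be told apart in them. The mix of nuclei did differ: macrophage-like nuclei were 2.97% of ND nuclei and 15.2% and 8.2% of STZ-HFHC 1 and 2, and hepatocyte-like nuclei were 63.6%, 35.4% and 45.2%. Depth enters these sums as well. Hepatocyte-like nuclei held 25682785 of 42715797 UMIs in ND, and 26524872 of 44350401 and 35339216 of 55632923 in STZ-HFHC 1 and 2. Their part of the UMIs thus did not fall as their part of the nuclei did. Macrophage-like nuclei held 1051447, 3644897 and 2774865 UMIs.

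**Figure D1:**
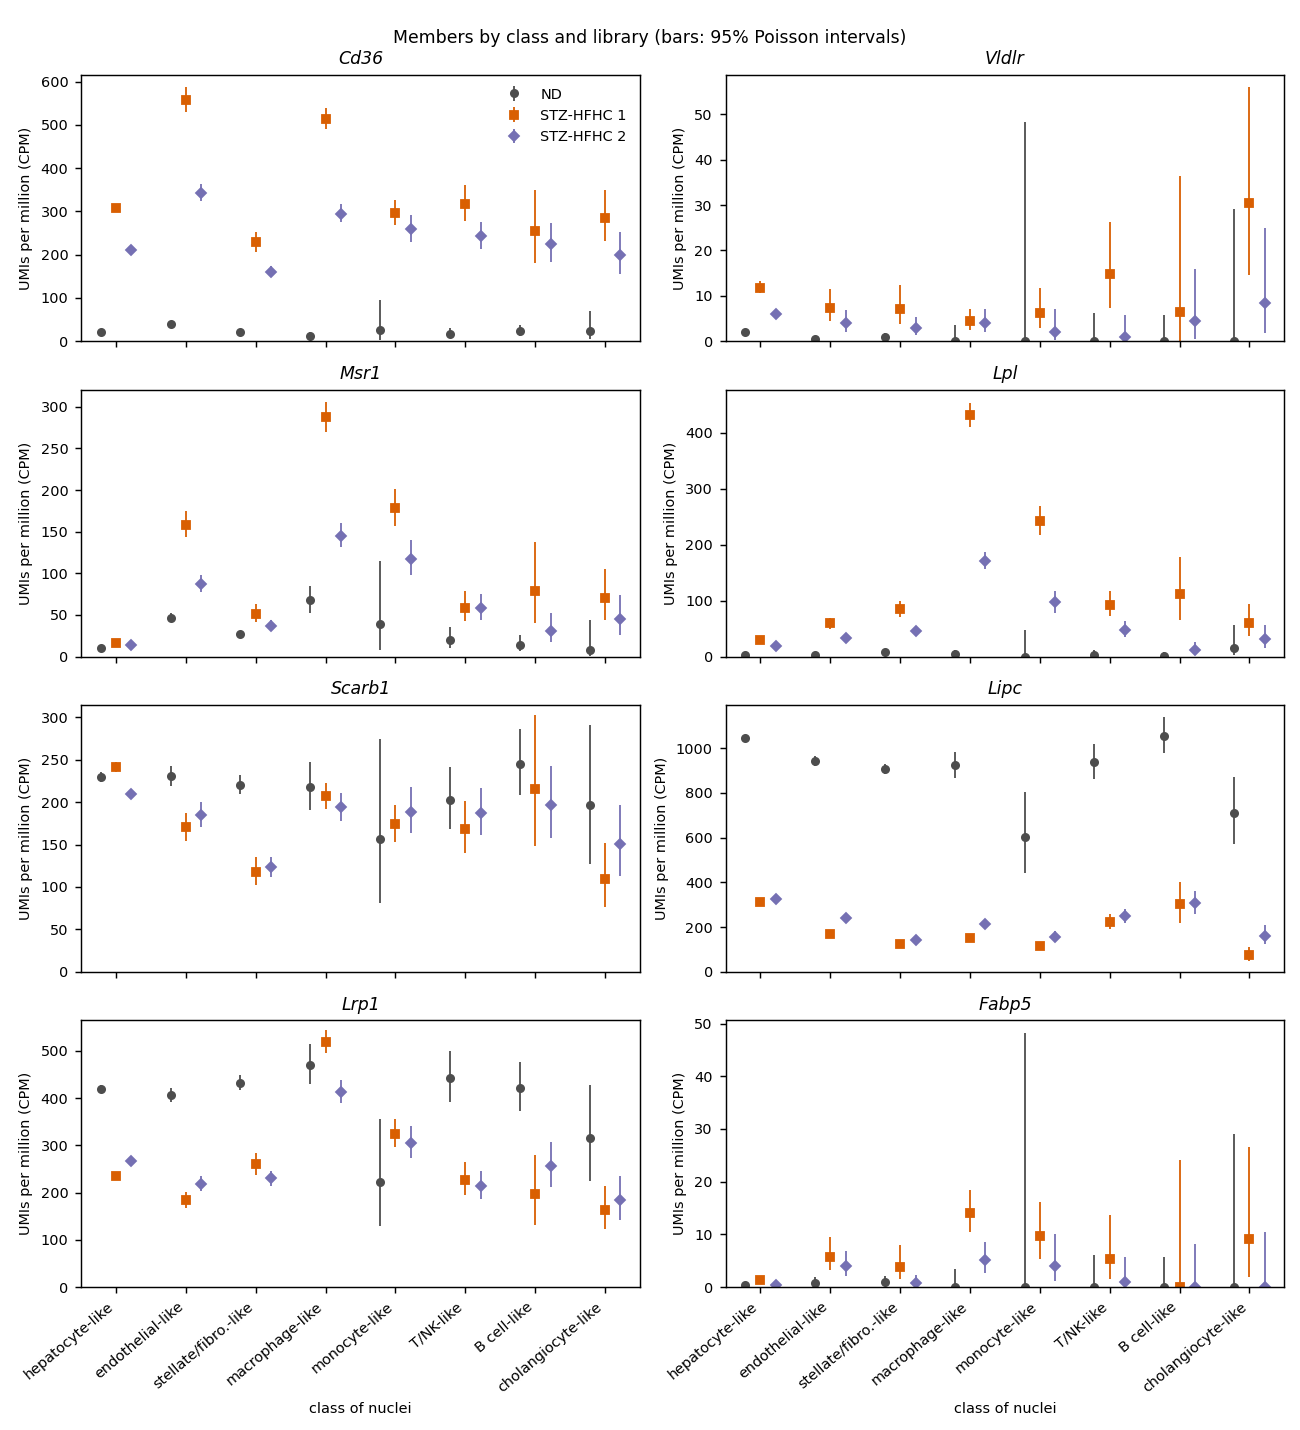
Level of each gene (CPM, vertical axes starting at 0 and differing between panels) in 8 classes of nuclei, with 1 point per library and 95% Poisson intervals. Cd36 and Lpl lie near the axis in ND, and their STZ-HFHC points lie above the ND point in every class, while Lipc shows the opposite order. For Lpl the ND interval overlaps that of STZ-HFHC 2 in B cell-like nuclei (11.1 CPM, 3.59–25.8). It overlaps those of both STZ-HFHC libraries in cholangiocyte-like nuclei.

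Among the receptors and transporters, Cd36 (ENSMUSG00000002944, GRCm38 chromosome 5, 17781690 to 17888801, minus strand) was higher in STZ-HFHC in every class compared. In hepatocyte-like nuclei it was at 22.2 CPM (20.4–24.1) in ND and 308 (301–315) and 211 (207–216) in STZ-HFHC 1 and 2. Both STZ-HFHC libraries lay far above ND, and STZ-HFHC 1 lay above STZ-HFHC 2. The log2 ratio to ND was 3.52 ± 0.38 (SD over the 2 STZ-HFHC mice, n = 2), or 13.8-fold and 9.5-fold. In endothelial-like nuclei Cd36 was at 40.1 CPM (35.6–45.1) in ND and 558 (529–587) and 344 (324–364) in STZ-HFHC 1 and 2. In macrophage-like nuclei it went from 12.4 CPM (6.58–21.1), 13 UMIs, in ND to 514 (491–538) and 295 (275–316), a log2 ratio of 4.92 ± 0.57 (n = 2). Cd36 passed the fold rule in each of the 4 classes compared, and in ND its endothelial level lay above its hepatocyte and macrophage levels.

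Cd36 UMIs also appeared in lymphocytes. T or NK cell-like nuclei held 16.7 CPM in ND and 317 and 243 in STZ-HFHC 1 and 2. After each nucleus was thinned to 1000 UMIs, a Cd36 UMI was found in 25.9% of hepatocyte-like nuclei of STZ-HFHC 1 and in 28.3% of its T or NK cell-like nuclei (73.5% and 41.7% before thinning, with 116 and 89 shallower nuclei left out). Endothelial-like nuclei of STZ-HFHC 1 stood above that, at 44.4% (40.9–48.0, exact binomial) against 28.3% (22.9–34.3). In STZ-HFHC 2 they were at 31.3% (28.3–34.4) against 24.8%, with overlapping intervals. Macrophage-like nuclei of STZ-HFHC 1 were at 34.2% (31.5–37.0), which overlapped the T or NK interval. The Cd36 share of hepatocyte-like nuclei thus did not exceed that of T or NK cell-like nuclei. The latter are no clean floor, since they held macrophage markers at 1155 and 1244 CPM in STZ-HFHC 1 and 2, against 463 and 472 in hepatocyte-like nuclei, and how much of either share is free RNA was not tested. The median depth before thinning was 7598 UMIs in hepatocyte-like and 1310 in T or NK cell-like nuclei of STZ-HFHC 1.

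Msr1 (ENSMUSG00000025044, chromosome 8, 39581685 to 39642673, minus strand) codes for a scavenger receptor. In macrophage-like nuclei it was at 67.5 CPM (52.7–85.2) in ND and 287 (270–305) and 145 (131–160) in STZ-HFHC 1 and 2, so that both STZ-HFHC libraries lay above ND. It passed the fold rule there, with a log2 ratio of 1.59 ± 0.69 (n = 2), but not when scaled to the UMIs of the macrophage markers, where the mean was 0.31. The macrophage markers themselves had median log2 ratios of 1.88 and 1.18 in these nuclei, and 11 of the 18 were higher. In endothelial-like nuclei Msr1 was at 46.9 CPM (42.0–52.2) in ND, 159 (144–175) and 87.6 (77.8–98.3), with log2 ratios of 1.76 and 0.90, short of the rule in STZ-HFHC 2. The endothelial markers had median log2 ratios of 1.33 and 0.75 in these nuclei, and 3 of the 12 were higher. Hepatocyte-like nuclei held 10.0, 16.6 and 13.7 CPM.

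The share of Msr1 UMIs in each class differed between conditions, and so did the share of nuclei. Endothelial-like nuclei held 35.8% of all Msr1 UMIs in ND but 11.5% and 12.3% in the STZ-HFHC libraries, and macrophage-like nuclei held 7.64%, 29.3% and 17.3%. A cluster with markers of both endothelium and macrophages, left unnamed, held 2.8% in ND and 24.8% and 25.2% in the STZ-HFHC libraries. Endothelial-like nuclei made up 14.0%, 9.83% and 9.11% of the nuclei of ND and STZ-HFHC 1 and 2. Macrophage-like nuclei made up 2.97%, 15.2% and 8.2%, and the mixed cluster 0.518%, 6.86% and 7.72%. The number of nuclei in a class, their depth and the level in them all enter these UMI shares. Endothelial-like nuclei held 7101578 of all 42715797 UMIs in ND, and 2586161 of 44350401 and 3276637 of 55632923 in STZ-HFHC 1 and 2. Their median depth was 5203, 1752 and 1888 UMIs, so their part of all UMIs fell more than their part of the nuclei. The parts of number, depth and level were not separated.

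Scarb1 (ENSMUSG00000037936, chromosome 5, 125277087 to 125341094, minus strand) did not pass the fold rule in any class compared as reported. Hepatocyte-like nuclei held 229.6 CPM (224–236) in ND and 242 (236–248) and 210.1 (205–215) in STZ-HFHC 1 and 2. ND lay between the 2 STZ-HFHC libraries. Its largest mean log2 ratio in size was -0.87 ± 0.04 (n = 2), in stellate or fibroblast-like nuclei (220.7, 118 and 123 CPM). There Scarb1 was at 96.1% of its hepatocyte-like level in ND and 48.9% and 58.7% in STZ-HFHC 1 and 2. Hepatocyte markers in the same nuclei were at 81.3%, 48.5% and 55.8% of their hepatocyte-like level. How much of this Scarb1 is hepatocyte RNA was not tested. Scarb1 was called lower in stellate or fibroblast-like nuclei without the highest doublet scores (mean log2 ratio -1.04) and when scaled to the markers of the class (-2.63), and in macrophage-like nuclei when so scaled (-1.40). Those markers rose from 3983 CPM in ND to 14292 and 12815 in stellate or fibroblast-like nuclei, and from 1773 to 5273 and 3490 in macrophage-like nuclei. Scaling to them lowers every ratio of the class, so the 2 scaled calls do not show a lower level of Scarb1.

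Lrp1 (ENSMUSG00000040249, chromosome 10, 127538161 to 127621148, minus strand) did not pass the rule in hepatocyte-like nuclei, at 419.6 CPM (412–428) in ND and 234 (229–240.2) and 266 (261–272) in STZ-HFHC 1 and 2. In macrophage-like nuclei its levels were 471 (430.2–514), 519.9 (497–544) and 414 (390.1–438), where the ND interval overlapped both STZ-HFHC intervals. The endothelial log2 ratios were -1.14 and -0.90, short of the rule in STZ-HFHC 2.

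Vldlr (ENSMUSG00000024924, chromosome 19, 27216484 to 27254231, plus strand) was a rare transcript. Hepatocyte-like nuclei held 52 UMIs in ND and 313 and 210 in STZ-HFHC 1 and 2, or 2.02 CPM (1.51–2.65), 11.8 (10.5–13.2) and 5.94 (5.17–6.8). The log2 ratio was 2.04 ± 0.70 (n = 2). The call was lost with all deposited barcodes and with clustering at a resolution of 0.5, where the mean log2 ratio was 1.05 and 0.43. In the other 3 classes Vldlr had fewer than 50 UMIs in all. Cholangiocyte-like nuclei of STZ-HFHC 1 held 30.4 CPM (14.6–56.0), those of STZ-HFHC 2 8.53, and the 32 of ND none.

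Fabp5 (ENSMUSG00000027533, chromosome 3, 10012548 to 10016607, plus strand) was at 0 UMIs in ND macrophage-like nuclei and at 51 and 14 in those of STZ-HFHC 1 and 2, or 14.0 and 5.05 CPM. Taking 3 UMIs as the most that a count of 0 allows, it was at least 4.9-fold higher in STZ-HFHC 1 and at least 1.77-fold higher in STZ-HFHC 2, so the rule was not met at the bound in STZ-HFHC 2. Hepatocyte-like nuclei had 9, 34 and 13 UMIs and did not pass the rule. The gene is short, it has near-identical pseudogene copies in the genome, and how the counting treated reads shared with them is not given in the sources used here, so its counts are uncertain.

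Of the lipases, Lpl (ENSMUSG00000015568, chromosome 8, 68880491 to 68907448, plus strand) had the largest log2 ratio of the 8 in macrophage-like nuclei. Macrophage-like nuclei held 4.76 CPM (1.54–11.1), 5 UMIs, in ND and 433 (412–455) and 171 (156–187) in STZ-HFHC 1 and 2. The STZ-HFHC libraries did not overlap ND, and STZ-HFHC 1 was higher than STZ-HFHC 2. The log2 ratio was 5.70 ± 0.95 (n = 2). In monocyte-like nuclei Lpl was at 0 UMIs in ND (40 nuclei) and at 242 and 96.9 CPM in STZ-HFHC. The share of Lpl UMIs by class differed: 38.5% of them lay in hepatocyte-like nuclei in ND, and 18.3% and 32.2% in STZ-HFHC 1 and 2. Macrophage-like nuclei held 3.21%, 36.5% and 23.3%. The share of nuclei differed as well, at 63.6%, 35.4% and 45.2% for hepatocyte-like and 2.97%, 15.2% and 8.2% for macrophage-like nuclei. Depth differed too, and the part of all UMIs in hepatocyte-like nuclei did not fall as their part of the nuclei did.

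Outside macrophages and monocytes Lpl was called higher too, but in the 4 classes compared the STZ-HFHC levels, macrophages apart, were no greater than those of T or NK cell-like nuclei. Hepatocyte-like nuclei were at 2.34 CPM (1.78–3.01), 29.7 (27.7–31.9) and 18.6, and T or NK cell-like nuclei at 3.35 (0.405–12.1), 92.4 (71.9–117) and 47.1 (34.5–62.8). The thinned shares of nuclei with an Lpl UMI were 3.75% and 1.96% in hepatocyte-like nuclei of STZ-HFHC 1 and 2, 10.6% and 5.61% in T or NK cell-like nuclei, and 31.1% and 14.8% in macrophage-like nuclei. Before thinning they were 19.9% and 11.2%, 17.5% and 9.19%, and 47.7% and 24.7%, and thinning left out 67 to 155 nuclei of each. The Lpl shares of hepatocyte-like nuclei and of endothelial-like nuclei (7.98% and 3.87%) were thus below those of T or NK cell-like nuclei, and the source of these UMIs was not tested. Macrophage markers in hepatocyte-like nuclei were at 8.78% and 13.5% of their level in macrophage-like nuclei of STZ-HFHC 1 and 2, and Lpl was at 6.88% and 10.8%. In T or NK cell-like nuclei these markers were at 21.9% and 35.6% and Lpl at 21.3% and 27.5%, so these nuclei are no clean floor for Lpl. In hepatocyte-like nuclei with no UMI of any macrophage marker, 888, 205 and 425 nuclei, Lpl was at 4.07, 41.5 and 20.2 CPM, not below its level over the class. Depth was not matched, and a shallow nucleus can lack a marker UMI though free RNA is present, so this subset cannot show the source.

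In stellate or fibroblast-like nuclei the Lpl call depended on which clusters were compared. Over the class it was at 9.01 CPM (6.92–11.5) in ND, 84.4 (71.5–98.9) and 45.2 (38.6–52.6). Most ND nuclei of this class (1043 of 1183) lay in a cluster of their own, and 1 cluster was shared by all 3 libraries. In that cluster Lpl was at 53.5 CPM (31.7–84.5) in the 140 ND nuclei and 84.5 (71.6–99.0) and 45.0 (38.4–52.4) in STZ-HFHC 1 and 2, where the ND interval overlapped both others. Cd36 stayed apart in it, at 35.7, 229 and 160.3 CPM, and Lipc at 324, 124 and 143.

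Lipc (ENSMUSG00000032207, chromosome 9, 70798128 to 70952226, minus strand) was the only member lower in both STZ-HFHC libraries in each class compared. Hepatocyte-like nuclei held 1046 CPM (1034–1059) in ND and 314 (307–321) and 326 (320.3–332) in STZ-HFHC 1 and 2. The STZ-HFHC libraries were close to each other and at 0.300 and 0.312 of the ND level, with a log2 ratio of -1.71 ± 0.04 (n = 2). A Lipc UMI was found in 59.0%, 25.9% and 26.9% of hepatocyte-like nuclei thinned to 1000 UMIs, and in 88.3%, 73.2% and 75.9% before thinning. In ND the T or NK cell-like nuclei had as large a share, 60.8% (50.4–70.6), and in STZ-HFHC 1 and 2 a smaller one, 14.2% (10.1–19.1) and 17.2% (13.1–21.9). Hepatocyte markers were lower beside Lipc in each class: 4 of 10 in hepatocyte-like nuclei, with median log2 ratios of -0.88 and -0.80, 5 in endothelial-like, 6 in macrophage-like and 6 in stellate or fibroblast-like nuclei. Their part in the Lipc values was not tested. In ND, Lipc in endothelial-, macrophage- and stellate or fibroblast-like nuclei was at 90.1%, 88.2% and 86.5% of its hepatocyte-like level. Hepatocyte markers there were at 86.3%, 93.6% and 81.3%. In the STZ-HFHC libraries Lipc in these classes was at 39.6% to 73.1%, and the markers at 48.5% to 78.3%. How much of this Lipc is hepatocyte RNA was not tested.

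**Figure D2:**
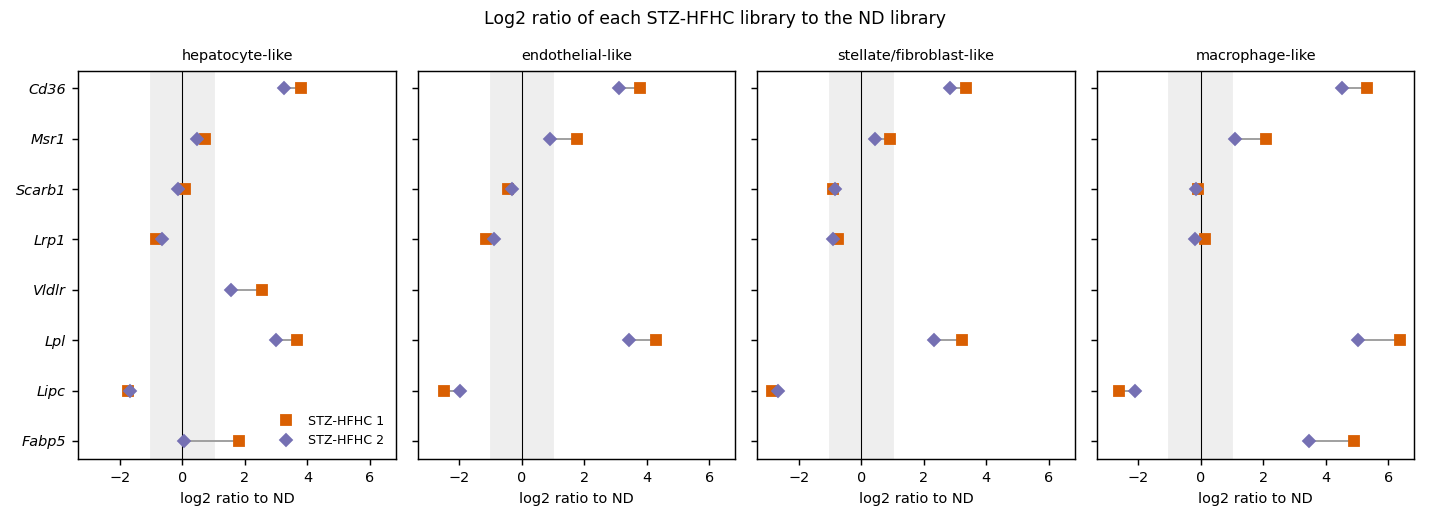
Log2 ratio of each STZ-HFHC library to ND in 4 classes (horizontal axis, the same in all panels), with grey marking ratios below 2-fold; a member under 50 UMIs in a class is not drawn. Cd36 and Lpl lie right of the grey band and Lipc left of it in all 4 panels.

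By class, 3 of the 8 genes were higher in hepatocyte-like nuclei (Cd36, Lpl, Vldlr) and 1 lower (Lipc), where 8.48% of genes were higher and 5.47% lower. In endothelial-like nuclei 2 of the 6 with enough UMIs were higher (Cd36, Lpl) and 1 lower (Lipc), beside 8.8% and 5.43% of genes. In macrophage-like nuclei 4 of 7 were higher (Cd36, Msr1, Lpl, Fabp5) and 1 lower (Lipc), beside 14.9% and 5.61%. In stellate or fibroblast-like nuclei 2 of 6 were higher (Cd36, Lpl) and 1 lower (Lipc), beside 11.2% and 8.82%. The median log2 ratio of the members was 2.08 and 1.10 in macrophage-like nuclei of STZ-HFHC 1 and 2, and 0.82 in STZ-HFHC 2 with Fabp5 at its bound, against 0.17 and 0.16 for all genes. In hepatocyte-like nuclei it was 1.27 and 0.25, against 0.09 and 0.11. The UMI minimum favours genes that are high in 1 of the conditions.

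**Figure D3:**
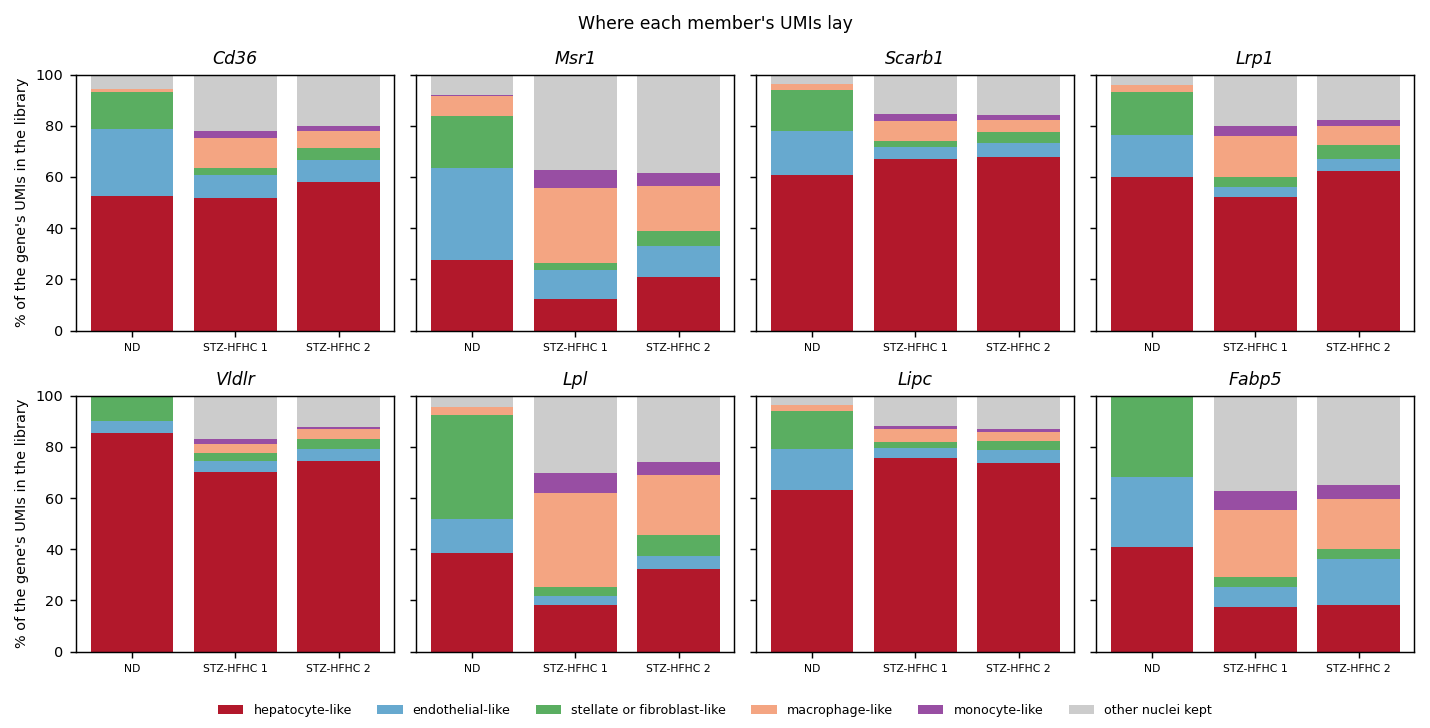
Share of each gene's UMIs in a library (vertical axis, percent) that fell in each class of nuclei, as stacked bars for ND, STZ-HFHC 1 and STZ-HFHC 2. For Lpl and Msr1 the macrophage-like share is larger in both STZ-HFHC libraries than in ND, and Lipc and Vldlr stay mostly in hepatocyte-like nuclei. The shares also follow the number and depth of the nuclei in each class, which differ between libraries.

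Within hepatocyte-like nuclei, position along the lobule was read from pericentral and periportal marker genes, which did not include the 8 genes, as the periportal share of the UMIs of both lists. The 3 ranges are cut from that share and are not cell types. Glutamine synthetase (Glul), a pericentral enzyme, was one of the genes that set the score, so its gradient follows from the ranges and only describes them: it was 89.5-fold higher in the pericentral than in the periportal range in ND, and 53.3-fold and 77.5-fold in STZ-HFHC 1 and 2. Vldlr, Cd36 and Lpl were pericentral in ND. Vldlr was at 14.2 CPM in the pericentral and 0.676 in the periportal range of ND (21.0-fold, 10.5 to 44.3 by an exact binomial interval of the ratio), at 36.1 and 6.8 in STZ-HFHC 1 (5.31-fold) and at 27.2 and 3.09 in STZ-HFHC 2 (8.8-fold). Cd36 was at 82.6 CPM pericentrally and 11.3 periportally in ND, a ratio of 7.28 (5.90–8.98), and at 309 and 285 in STZ-HFHC 1 (1.08, 1.01–1.17) and 232 and 198 in STZ-HFHC 2 (1.17, 1.08–1.27). In the middle range Cd36 was at 46.1 CPM in ND, between the other ranges, and at 389 (369–410.4) and 256 (241–273) in the STZ-HFHC libraries, the highest of the 3 ranges in both, though in STZ-HFHC 2 its interval overlapped the pericentral one. The pericentral level was above the periportal level in each library, and the ratio was smaller in both STZ-HFHC libraries than in ND. Lpl had ratios of 5.06 (2.53–9.7) in ND, 1.44 (1.15–1.79) and 1.53 (1.18–1.95), on 15 pericentral UMIs in ND. T or NK cell-like nuclei held 16.7, 317 and 243 CPM of Cd36 in ND and STZ-HFHC 1 and 2, and 3.35, 92.4 and 47.1 of Lpl. The part of free RNA in the zone ratios was not tested. For Lipc the order turned: 782 CPM pericentrally and 1099 periportally in ND, a ratio of 0.712 (0.675–0.750), against 1.19 (1.11–1.28) and 1.15 (1.08–1.22) in the STZ-HFHC libraries. Scarb1, Msr1 and Lrp1 had ratios between 0.784 and 1.47 in the 3 libraries. In ND 572 of 4785 nuclei with enough zone UMIs lay within 5 points of a limit between ranges.

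**Figure D4:**
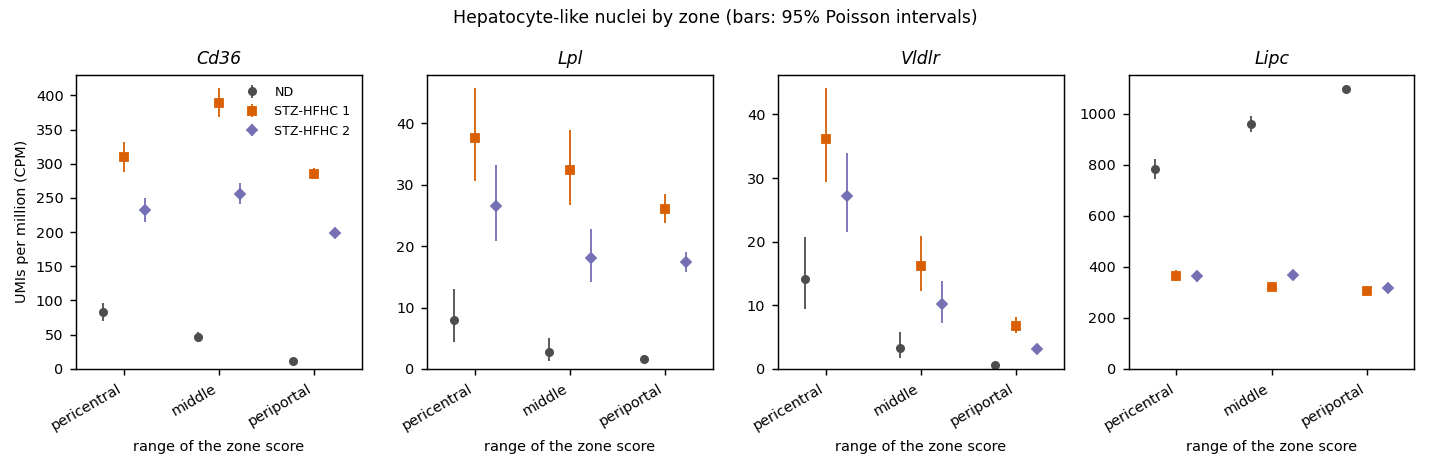
Level of Cd36, Lpl, Vldlr and Lipc (CPM, vertical axes starting at 0) in hepatocyte-like nuclei of 3 ranges of the zone score, with 1 point per library and 95% Poisson intervals. Cd36 is lower in each range than in the one before from pericentral to periportal in ND, and is highest in the middle range in both STZ-HFHC libraries (389 and 256 CPM).

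Macrophage-like nuclei were divided into 5 subclusters without using the 8 genes. Subcluster 5 (245 nuclei, all ND, led by Serpina1e, Gm15622 and Gm15401) held 63.3 CPM of Msr1 (49.0–80.6), 12.5 of Cd36 and 4.8 of Lpl. Subcluster 3 (445 nuclei, led by Emp1, Anxa1 and Tmem267, with Gpnmb, a glycoprotein of lipid-laden macrophages, among its 10 leading genes) had the highest levels of Cd36 and Lpl in both STZ-HFHC libraries. There Cd36 was at 974 (911–1040.4) and 638 (544–743) CPM, against 428 and 320.2 in subcluster 1 and 419 and 369 in subcluster 2. Lpl was at 822 CPM (764–883) and 491 (409–584) in subcluster 3, 319 and 174 in subcluster 1 and 495 and 342 in subcluster 2. Fabp5 had 42 of its 51 macrophage-like UMIs of STZ-HFHC 1 in subcluster 3, and 7 of 14 in STZ-HFHC 2. Msr1 had another order, with 495 CPM (456–537) and 354 (305–409) in subcluster 2, led by Gfra2, Rtn1 and Kcnj16, above 315 (279–353) and 243 (187–312) in subcluster 3. Subcluster 1 (726 nuclei, led by Tspan7, Sema6a and Rasgrp3) had 230.5 and 144 CPM of Msr1. Its endothelial markers summed to 1224 and 1223 CPM, above the 796 to 969 of subclusters 2 and 3, and their part in its Cd36 and Msr1 was not tested. Subcluster 4 was led by Gm17276, Mmd2 (which also led a hepatocyte-like cluster) and Olfm2, and 64.0% of its nuclei had high doublet scores at a median of 5740 UMIs, against 0.996% to 6.34% in the other 4. It had the most Lipc of the STZ-HFHC subclusters, 277 and 304 CPM, and the least Lpl, 102 and 51.3. Its hepatocyte markers summed to 14213 and 16475 CPM in STZ-HFHC 1 and 2. Subcluster 4 is part of the macrophage-like class, so it enters the STZ-HFHC levels and ratios given for that class.

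**Figure D5:**
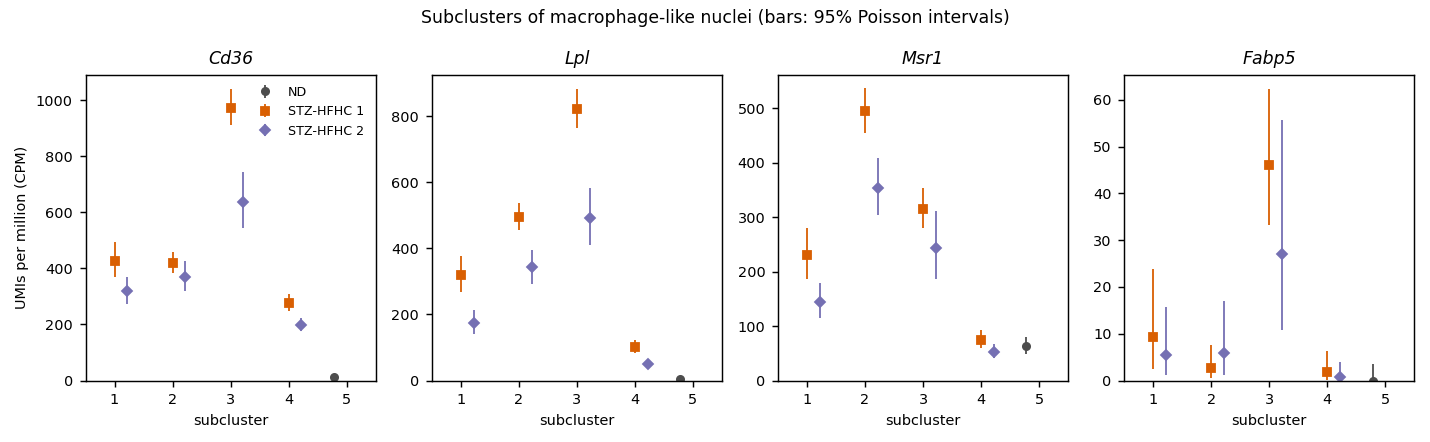
Level of Cd36, Lpl, Msr1 and Fabp5 (CPM, vertical axes starting at 0) in 5 subclusters of macrophage-like nuclei, with 1 point per library and 95% Poisson intervals; only points with at least 20 nuclei are drawn. Subcluster 3 is highest for Cd36, Lpl and Fabp5, and subcluster 2 for Msr1.

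An endothelial-like cluster of 26 and 31 nuclei in STZ-HFHC 1 and 2, led by Tmem255b, Gm6213 and Mal, held more Cd36 than the main endothelial-like cluster, at 885 CPM (694–1113) against 547 (519–577) in STZ-HFHC 1 and 738 (563–950) against 333 (313–354) in STZ-HFHC 2.

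Of 40 other genes of the pathway, 4 were higher and 7 lower of the 35 tested in hepatocyte-like nuclei, beside 8.48% and 5.47% of all genes. Acsl1, which activates fatty acids to acyl-CoA, was at 3752 CPM in ND and 986 and 769 in STZ-HFHC 1 and 2. Apoe, an apolipoprotein that lipoprotein receptors bind, was at 1322, 283 and 232 CPM. Angptl8, a regulator of lipoprotein lipase, had log2 ratios of -1.65 and -2.46. Apoc3, an inhibitor of the same enzyme, had -1.49 and -2.03. The higher genes were Fabp4, Fabp7, Sorl1 and Marco, and all 4 were at 5.81 CPM or less in each library. The list of fatty acid transport and activation had 2 higher and 2 lower of 13 tested, that of lipoprotein and scavenger receptors 2 and 2 of 8, and that of lipases and their regulators 0 and 3 of 14, with list medians between -0.75 and -0.09.

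In macrophage-like nuclei 4 of 33 tested were higher and 6 lower, beside 14.9% and 5.61% of all genes, so that the count of higher genes was no larger than the background. Fabp4, the fatty acid-binding protein of macrophages and endothelium, was at 1.9 CPM (2 UMIs) in ND, 29.4 and 18.0 in STZ-HFHC, and in endothelial-like nuclei at 4.93, 72.7 and 56.2. The scavenger receptor gene Marco was at 8.56, 26.6 and 18.0 CPM in macrophage-like nuclei, and Sorl1, a sorting receptor, went from 1 UMI to 88 and 66. Colec12, a scavenger receptor, was at 444, 678.5 and 921 CPM there, and Apoe at 700, 687 and 460.2 CPM. Among the lower genes were Acsl1, Angptl8, Lipg and Slc27a5, and hepatocyte markers were lower in the same nuclei, 6 of 10. In endothelial-like nuclei 2 of 32 were higher and 6 lower, beside 8.8% and 5.43%. Gpihbp1, which anchors lipoprotein lipase on capillary endothelium, was at 12.7, 33.6 and 22.3 CPM there and did not pass the rule. In stellate or fibroblast-like nuclei 2 of 32 were higher (Acsl4, which activates arachidonic acid, and Fabp4) and 11 lower, beside 11.2% and 8.82%.

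Across 30 points, each a class in a library, the genes whose log2 level was most like that of Cd36 were Cyp2b9 (Pearson r = 0.95), Fkbp5 and Cyp2a22, among 13895 genes compared. For Lpl they were Hmox1 (0.92), Gpnmb and Galk2, for Msr1 Ctsb (0.89), Entpd1 and Hpcal1, and for Lipc Ttc39c (0.98), Acsl1 and Azgp1. Vldlr was nearest to Trim6 (0.90), Pls1 and Sult1c2, Fabp5 to Adam15 (0.82), Parp12 and Itm2c, Scarb1 to Dcakd (0.87), Ggnbp2 and Tmem243, and Lrp1 to Cpeb4 (0.76), Gpr108 and Gm32017. The points of 1 library share its free RNA, batch and depth, so these values only describe likeness.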

How the data were processed

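UMI counts per gene and barcode were used as the authors deposited them, made with Cell Ranger 7.0.1 on mm10 according to the submitters' processing notes and not normalized. The use of intronic reads and any correction for free RNA are not given in the sources used here. Analyses ran in Python 3.11.15 with Scanpy 1.11.5, leidenalg 0.10.2, SciPy 1.17.1 and matplotlib 3.10.9. Barcodes with 200 to 5000 genes and at most 5% mitochondrial UMIs were kept, giving 42715797 to 55632923 UMIs per library. The 3 libraries were clustered together without batch correction (2000 variable genes, 30 principal components, 15 neighbors, Leiden resolution 1), leaving out 64 genes: the 8 genes described, 40 of their pathway and 16 zone genes. The members and lists were chosen with earlier results of these data known.

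Clusters were named from 12 marker lists. A marker counted when it was at least 2-fold its median over all other clusters within the cluster's main library and was seen in 5% of nuclei. A class needed 3 markers and 33.3% of its list, and mixed clusters or those led by mitochondrial genes stayed unnamed. Clusters with no other class and with at least 50% of the hepatocyte markers detected were called hepatocyte-like. This rule was revised once after the clusters had been seen, since hepatocyte RNA in every ND cluster had left ND macrophages unnamed. The automatic doublet threshold of Scrublet marked 1, 0 and 0 nuclei and did not work, so the highest 8% of scores were taken (714, 810 and 921 nuclei). They were kept, and left out as an alternative.

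Counts were summed per class and library, and 0.5 was added before log2 ratios, which shrinks those of rare genes. Zones came from 8 pericentral and 8 periportal genes in nuclei with at least 10 of their UMIs. Named genes were the 8 members in every class, pathway genes past the fold rule (at most 5 per class and direction) with the highest of each list, the 3 genes most like each member and the 3 leading genes of a cluster. Gpihbp1 and Gpnmb were named after their values were seen. The values of 1 pathway gene are not reported here. Coordinates came from GENCODE M21 by Ensembl identifier.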

Additional observations from a re-analysis of the deposited data

Results flagged for a closer look

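For Colec12 and Lrpap1 the direction against ND differed between classes of nuclei, and for Lipc the direction along the lobule differed between conditions. None of these differences was tested, since there was 1 ND mouse.

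Colec12, a scavenger receptor of the collectin family, had log2 ratios of 0.61 and 1.05 in macrophage-like nuclei, short of the rule in STZ-HFHC 1. It was lower in stellate or fibroblast-like nuclei (-1.16 and -1.01), a difference of 1.92 between the class means. Hepatocyte-like nuclei held 14488 of its 22046 UMIs in ND, and its log2 ratios there were -0.64 and -0.41. Hepatocyte markers in stellate or fibroblast-like nuclei were at 81.3%, 48.5% and 55.8% of their hepatocyte-like level in ND and STZ-HFHC 1 and 2. How much of the Colec12 in these nuclei is hepatocyte RNA was not tested. Lrpap1 had log2 ratios of 0.77 and 0.18 in macrophage-like nuclei, on 5 ND UMIs, and -1.16 and -1.07 in endothelial-like nuclei, a difference of 1.59. In hepatocyte-like nuclei Lrpap1 was lower as well, at -1.01 and -1.11.

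The pericentral to periportal log2 ratio of Lipc was -0.49 in ND and 0.26 and 0.20 in STZ-HFHC 1 and 2, a difference of 0.72 between the STZ-HFHC mean and ND. The level of Lipc was lower in STZ-HFHC in all 3 ranges of the score.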

How the results depend on the processing

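Of 132 values of called genes under alternatives, 122 kept their call and 10 lost it, and no called ratio changed sign. The 132 leave out settings that drop a library, change the fold or UMI minimum, or put 3 UMIs in place of 0 in ND. The lost calls were Vldlr in hepatocyte-like nuclei (3 settings), Msr1 (4) and Fabp5 (1) in macrophage-like nuclei (Fabp5 also with 3 UMIs in place of 0 in ND, and for too few UMIs without STZ-HFHC replicate 1), and Lpl in stellate or fibroblast-like nuclei (2, scaled to own markers and in the shared cluster alone, with mean log2 ratios of 1.01 and 0.17). With a log2 ratio of at least 2, the members called were 2 over all nuclei (5 as reported) and 2 in hepatocyte-like nuclei (4), Cd36 and Lpl in each. In endothelial-like nuclei 3 were called as reported, and 5 without the highest doublet scores, with all deposited barcodes or at resolution 2, where Msr1 was higher and Lrp1 lower as well. There were 6 at resolution 0.5, with Msr1, Vldlr and Fabp5 higher, and 5 with a minimum of 20 UMIs or none, where Vldlr and Fabp5 entered. In macrophage-like nuclei 3 of 5 remained called at resolution 0.5, where only 55 ND nuclei were in the class. Leaving out 1 STZ-HFHC library gave 5 to 6 called over all nuclei, 4 in hepatocyte-like, 3 to 5 in endothelial-like, 4 to 5 in macrophage-like and 3 in stellate or fibroblast-like nuclei. The endothelial 5 came without STZ-HFHC replicate 2. Scaling to class markers and the subsets of nuclei were chosen after the data had been seen. The class markers were higher in STZ-HFHC, so scaling to them lowers each ratio of the class. No ND library could be left out. No paired analysis was possible, since the libraries came from separate mice with no pairing between conditions. Depth limits Fabp5 and Vldlr most.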
